A study of Mus musculus with 6 samples.

Results

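The genes described here are 50 genes of the cell cycle and of DNA replication, chosen by symbol from general knowledge of what their proteins do and found by exact match in the gene column of both deposited expression tables, which hold 23235 genes each. They comprise 3 regulators of the G1 phase, 20 genes of the entry into and passage through S phase, and 27 genes of mitosis. All 50 were tested in both tables. The cultures were primary cortical and hippocampal neurons of mouse embryos of day 15, grown for 17 days, exposed on day 5 to 1 uM AraC, a nucleoside analog that kills or blocks dividing cells, and transduced on day 12 with lentivirus carrying short hairpin RNAs. The 3 groups were control, HDAC2 knockdown and Sp3 knockdown, with 2 libraries each, and the labels give the control only as control, so which hairpin it carried is not stated. Mouse strain and sex are not given in the labels, and all groups share the AraC exposure and the transduction. The study asked whether HDAC2, a histone deacetylase, and Sp3, a transcription factor, regulate a common set of genes in neurons.

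The cell cycle is driven by cyclins and their kinases. Cyclin D with Cdk4 phosphorylates the retinoblastoma proteins, which frees E2F factors to switch on the genes of S phase, and a later wave, held back in resting cells by the DREAM complex and driven by B-Myb and Foxm1, switches on the genes of mitosis. Mature neurons have left the cycle, so transcripts of this program in a neuronal culture can come from glia and progenitor cells that share the dish. The level of a transcript in a bulk culture is an average over all cells, in which fewer cells of a type and less RNA per cell cannot be told apart.

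The authors deposited 1 FPKM value per gene and group (fragments per kilobase of transcript scaled also to the number of mapped fragments), made by Cuffdiff from the 2 libraries together. Values of single libraries and the depth of sequencing cannot be read from the tables, and an error can be had only as the standard error that Cuffdiff's test statistic implies for a log2 fold change. Whether the 2 libraries of each group were grown as independent cultures is not stated, and the p-values may therefore reflect technical spread alone. The targeted genes bore out the labels: Hdac2 stood at 49.4 FPKM in control, 12.3 in HDAC2 knockdown and 38.8 in Sp3 knockdown, and Sp3 at 15.5, 26.7 and 5.82. The median gene of at least 1 FPKM was shifted by 0.32 (log2) in HDAC2 knockdown and by -0.13 in Sp3 knockdown. For this reason each change is also given centred, that is, with the shift of the median gene subtracted. Both comparisons use the same control values, identical in 100% of genes, so a high or low control value enters both, and no agreement between them is drawn from that.

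Most of the program was lower in Sp3 knockdown. By the q-value in the authors' deposited table at 0.05, 40 of the 50 genes were lower and 1 was higher, where 26.1% of all tested genes were called lower and 13.2% higher. After centring, with a normal p and Benjamini-Hochberg adjustment over all tested genes, 37 were lower and 1 was higher, against a background of 17.6% and 20.2%. The median change of the 50 genes was -0.75 (log2) as deposited and -0.62 after centring. The summed level of the 50 genes was 642 FPKM in control, 414 in Sp3 knockdown and 804 in HDAC2 knockdown. These sums are not centred, and the median gene was itself shifted by 0.32 (log2) in HDAC2 knockdown and -0.13 in Sp3 knockdown. In HDAC2 knockdown few genes were called. The authors' deposited table of HDAC2 knockdown calls 6 genes higher and 0 lower, where 24.6% of all tested genes were called higher and 3.6% lower, and after centring 0 were higher and 2 lower, against 10.2% and 7.59%. At an unadjusted p under 0.05 the deposited counts for HDAC2 knockdown were 9 higher and 0 lower, and the centred counts 0 and 3. No share of all tested genes at that threshold is given, so nothing about the 50 genes is drawn from these counts.

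**Figure D1:**
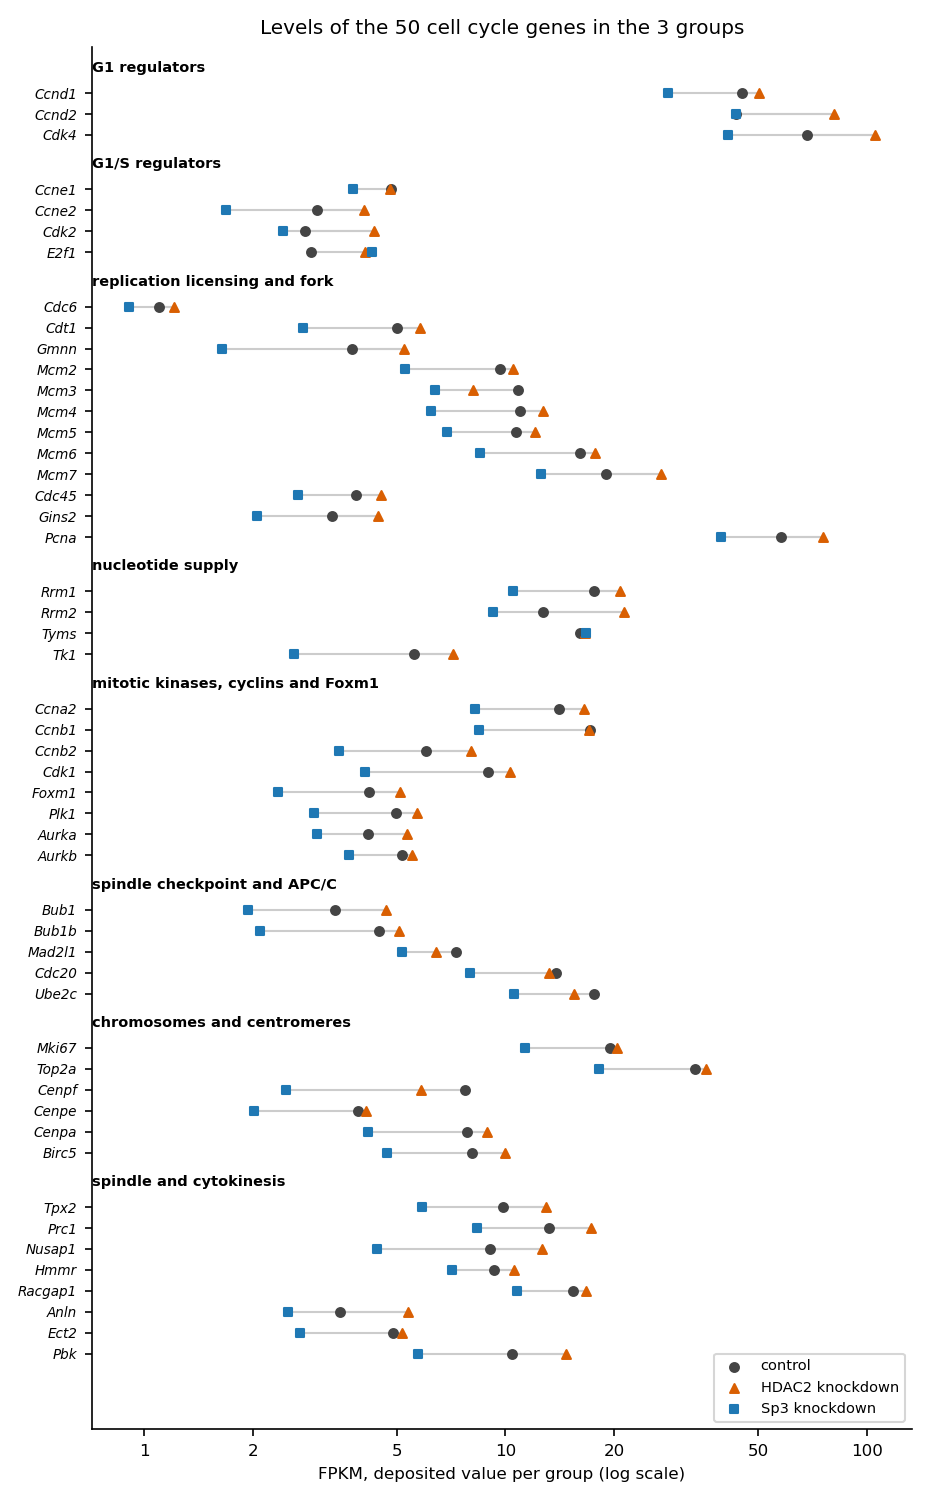
FPKM of each of the 50 genes in control, HDAC2 knockdown and Sp3 knockdown on a log axis, 1 point per gene and group, each the authors' value for 2 libraries, without error bars because none per group was deposited. The Sp3 knockdown point lies below the control point for 47 of the 50 genes, and the HDAC2 knockdown point lies above it for 43.

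The promoters of these genes carry known sequence elements, and a few are shown as examples. Promoters were taken from RefSeq, build GRCm38.p6, as 250 bases before to 50 bases after the start, and 39 of the 50 symbols matched. Elements were searched on both strands: the GC box GGGCGG, which the Sp family of factors binds; CCAAT, bound by NF-Y; the CHR (cell cycle genes homology region), TTTGAA or TTCGAA, read by the DREAM complex; and the E2F site, TTTGGCGC or TTTCCCGC. None of these words contains another, although matches may overlap. In the lines below, the 150 bases before the start are given 5' to 3' on the gene's strand, with every match in capitals. The mitosis genes shown hold a CHR in these bases, and the S phase genes an E2F site. Among such genes, those with the largest Sp3 test statistics were taken, whether called or not. Cdc6 was not called in either knockdown.

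Top2a, the topoisomerase that untangles chromosomes, Cdk1, the kinase that drives entry into mitosis, and Mki67, which codes for the proliferation antigen Ki-67, show the CHR of mitosis genes. They lie at chr11:99024190-99024339, chr10:69352913-69353062 and chr7:135716380-135716529, all on the minus strand.
Top2a: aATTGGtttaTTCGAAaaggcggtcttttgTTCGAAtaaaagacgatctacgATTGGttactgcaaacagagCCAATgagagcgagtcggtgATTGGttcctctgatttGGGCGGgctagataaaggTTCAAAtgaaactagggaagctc
Cdk1: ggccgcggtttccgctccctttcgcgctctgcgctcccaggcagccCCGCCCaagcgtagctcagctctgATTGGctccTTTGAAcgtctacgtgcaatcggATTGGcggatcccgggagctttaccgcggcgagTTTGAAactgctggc
Mki67: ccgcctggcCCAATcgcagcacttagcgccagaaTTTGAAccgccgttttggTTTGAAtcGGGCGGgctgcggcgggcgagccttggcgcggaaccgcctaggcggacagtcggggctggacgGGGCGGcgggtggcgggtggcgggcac

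Top2a holds 3 CHR matches in these bases, and Cdk1 and Mki67 hold 2 each. Mcm6 and Mcm5, subunits of the replicative helicase, and Cdc6, which loads that helicase at origins, show the E2F site of S phase genes. They lie at chr1:128359706-128359855 on the minus strand, chr8:75109359-75109508 on the plus strand and chr11:98908001-98908150 on the plus strand.
Mcm6: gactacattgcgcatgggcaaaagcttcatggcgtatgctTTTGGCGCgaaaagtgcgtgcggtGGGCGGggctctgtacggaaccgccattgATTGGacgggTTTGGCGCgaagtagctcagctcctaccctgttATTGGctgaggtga
Mcm5: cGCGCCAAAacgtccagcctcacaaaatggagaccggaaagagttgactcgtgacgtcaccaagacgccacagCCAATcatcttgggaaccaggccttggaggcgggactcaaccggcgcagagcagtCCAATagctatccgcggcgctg
Cdc6: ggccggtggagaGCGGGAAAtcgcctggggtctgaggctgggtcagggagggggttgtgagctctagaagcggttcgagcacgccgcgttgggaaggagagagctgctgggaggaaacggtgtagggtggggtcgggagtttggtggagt

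E2f1, the factor that reads the E2F site, is shown because it was the 1 gene of the 50 called higher in Sp3 knockdown. Its promoter lies at chr2:154569427-154569576 on the minus strand and holds 3 GC boxes in the bases printed.
E2f1: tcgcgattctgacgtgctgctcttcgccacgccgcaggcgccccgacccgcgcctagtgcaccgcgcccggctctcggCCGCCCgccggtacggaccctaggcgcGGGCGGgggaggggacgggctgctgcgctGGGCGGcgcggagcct

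The CHR was found in 17 of 22 mitosis promoters and 3 of 16 S phase promoters, where 15.5% of the 9409 tested genes with a promoter in the table and 21.7% of all 27025 genes of that table had it. The E2F site was the reverse, with 7 of 16 S phase promoters and 0 of 22 mitosis promoters, against 3.44% of tested genes and 1.8% of all. Among cell cycle genes outside the 50 the split was less sharp, with an E2F site in 29.3% of 41 S phase and 13.1% of 61 mitosis promoters, and a CHR in 24.4% and 68.9%. CCAAT was in 18 of 22 mitosis and 10 of 16 S phase promoters, against 43.7% of tested genes and 41.1% of all. GC boxes were in 19 of 22 and 13 of 16, against 69.6% of tested genes and 38.2% of all. Of the 17 mitosis promoters with a CHR, 9 have it when only the bases before the start are searched, against 14% of tested genes. In that window an E2F site was in 5 of 16 S phase and 0 of 22 mitosis promoters, against 2.9% of tested genes. Among the cell cycle genes outside the 50, it was there in 14.6% of S phase and 11.5% of mitosis promoters, and a CHR in 22% and 44.3%. A match is a word in the sequence and was not tested as a bound site.

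**Figure D2:**
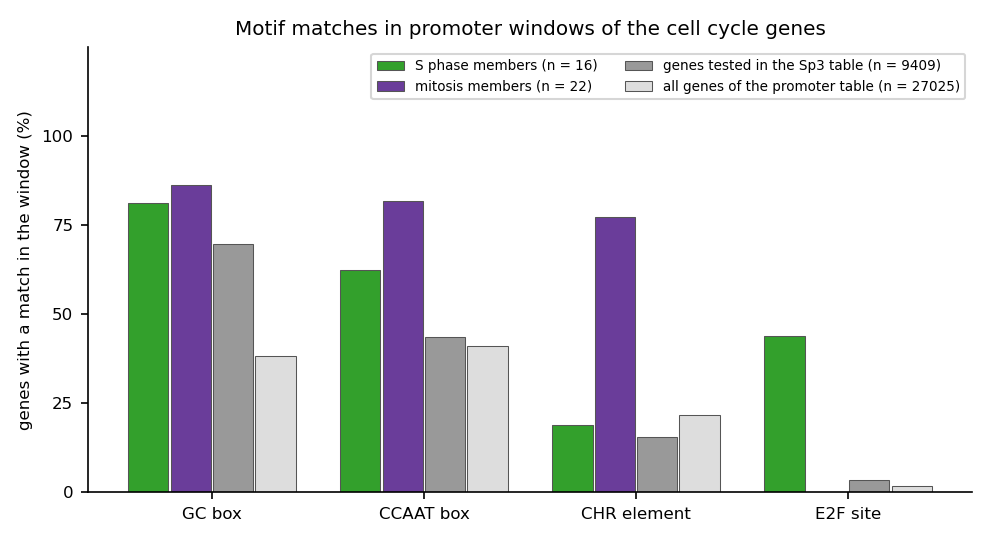
Percent of promoters with at least 1 match to each element, for the S phase and mitosis genes among the 50, for the tested genes and for all genes of the promoter table; bars start at 0. The CHR bar is high for mitosis genes and the E2F bar for S phase genes, while GC boxes are common among tested genes in general, at 69.6%.

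**Figure D3:**
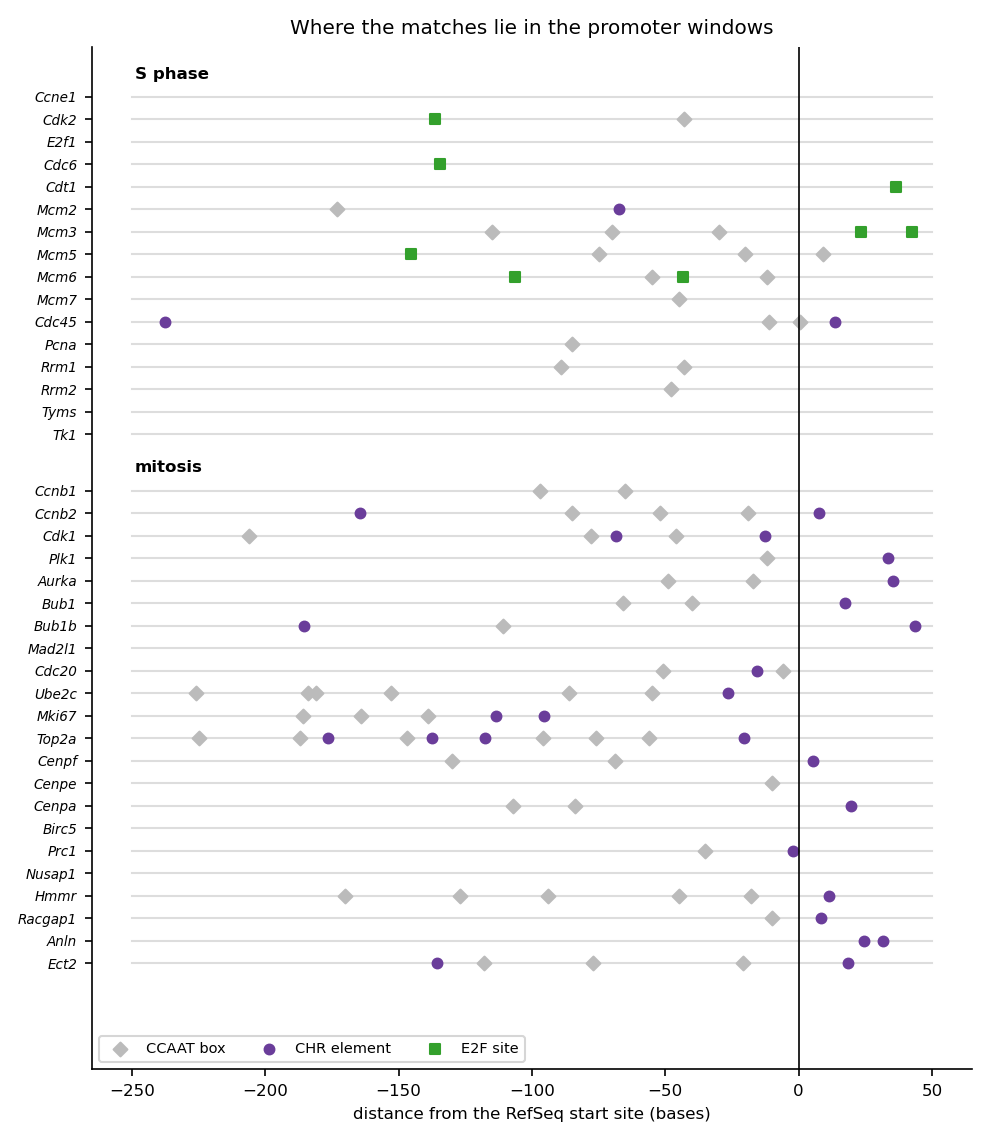
Position of each CCAAT, CHR and E2F match relative to the start (bases, 0 at the start) in the matched promoters, 1 row per S phase or mitosis gene, from the first table entry of each gene. CHR matches fall mostly in rows of mitosis genes, and E2F matches in rows of S phase genes.

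Genes with and without each element were lower in Sp3 knockdown. Of 33 genes with a GC box, the authors' deposited table calls 28 lower, and 4 of the 6 without one. The corresponding counts were 18 of 20 with a CHR and 14 of 19 without, 25 of 28 with CCAAT and 7 of 11 without, and 5 of 7 with an E2F site and 27 of 32 without. The median centred change was -0.63 (log2) with a GC box and -0.56 without, and -0.65 and -0.59 for a CHR. For CCAAT it was -0.64 with and -0.36 without, and for the E2F site -0.51 with and -0.64 without. These are counts over genes, which are not replicates, and the differences were not tested.

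Among the G1 regulators, the D cyclins and their kinase were among the most abundant transcripts of the 50. Cdk4, the kinase partner of the D cyclins, stood at 68.3 FPKM in control, 105 in HDAC2 knockdown and 41.3 in Sp3 knockdown. Its centred change in Sp3 knockdown was -0.59 ± 0.11 (log2, implied SE). Ccnd1, cyclin D1, also fell, from 45.1 to 28.2 FPKM in Sp3 knockdown (centred -0.54 ± 0.13), and stood at 50.4 in HDAC2 knockdown. Ccnd2, cyclin D2, behaved differently, with 43.6 FPKM in control and in Sp3 knockdown and 81.0 in HDAC2 knockdown. The q of the last contrast in the authors' deposited table was 0.121, which misses the threshold. The locus deposited for Ccnd2 is shared with 9330179D12Rik.

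The 4 regulators of the passage from G1 to S phase had a median centred change of -0.14 in Sp3 knockdown, with 1 lower and 1 higher. Ccne2, cyclin E2, fell from 3.01 to 1.68 FPKM (centred -0.71 ± 0.25), with a q of 0.00479 in the authors' deposited table from Cuffdiff, and its locus is shared with Ints8. Ccne1, cyclin E1, gave 4.82 FPKM in control and 3.79 in Sp3 knockdown, and Cdk2, the kinase that the E cyclins activate, gave 2.78 and 2.43; neither was called. E2f1 moved the other way. It lies at chr2:154385374-154395588 in the mm9 coordinates of the table and stood at 2.90 FPKM in control, 4.10 in HDAC2 knockdown and 4.26 in Sp3 knockdown. Its q in the authors' deposited table was 0.0240 for Sp3 knockdown and 0.203 for HDAC2 knockdown, and the centred change was 0.69 ± 0.20 in the former and 0.18 ± 0.31 in the latter. Thus both knockdown values lay above control for E2f1 and only the Sp3 contrast was called. No other gene of the 50 was called higher in Sp3 knockdown.

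Of the 12 genes that license origins and form the replication fork, 9 fell in Sp3 knockdown and all 12 had a value below control. The 6 subunits of the MCM helicase, which unwinds DNA ahead of the fork, each fell, to between 0.527 and 0.665 of control. Mcm6 fell most, from 16.1 FPKM in control to 8.50, with 17.7 in HDAC2 knockdown, and its centred change in Sp3 knockdown was -0.79 ± 0.12. Mcm7 fell least, from 18.9 to 12.6 FPKM, and stood at 27.0 in HDAC2 knockdown; its locus is shared with 3 microRNA genes. Mcm3 was the 1 subunit called lower after centring in HDAC2 knockdown, where it stood at 8.13 FPKM against 10.8 in control and 6.39 in Sp3 knockdown; its difference from the other subunits was not tested. Its centred change in HDAC2 knockdown was -0.73 ± 0.24 (adjusted p = 0.0177, normal test), while the q in the authors' deposited table was 0.179.

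Pcna, the sliding clamp of the replicative polymerases, was the most abundant gene of the S phase group, with 58.1 FPKM in control, 75.7 in HDAC2 knockdown and 39.5 in Sp3 knockdown. The licensing factor Cdt1 fell from 5.01 to 2.75 FPKM in Sp3 knockdown. Gmnn, geminin, which inhibits Cdt1, fell from 3.76 to 1.64 FPKM and stood at 5.23 in HDAC2 knockdown. Its centred change of -1.06 was the largest fall of the S phase genes and also among the least precise, at ± 0.42. Cdc6, Cdc45 and Gins2, which act in helicase loading and activation, were at 0.825, 0.692 and 0.618 of control and were not called. All 3 were lowly expressed, at 1.10, 3.86 and 3.31 FPKM in control, but so was Gmnn, which was called lower.

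The enzymes that supply nucleotides split. Rrm1 and Rrm2 are the large and small subunits of ribonucleotide reductase, which makes deoxynucleotides. Rrm1 fell from 17.6 to 10.5 FPKM in Sp3 knockdown, and Rrm2 from 12.7 to 9.21. Rrm2 was also called higher in HDAC2 knockdown, at 21.3 FPKM, with a q of 0.00624 in the authors' deposited table and an adjusted p of 0.206 after centring. Tk1, the S phase thymidine kinase of the salvage pathway, fell from 5.58 to 2.59 FPKM in Sp3 knockdown, a centred change of -0.97 ± 0.27. Tyms, thymidylate synthase of the de novo pathway, gave 16.05, 16.6 and 16.7 FPKM in control, HDAC2 knockdown and Sp3 knockdown. The 95% interval of its centred log2 change ran from -0.58 to 0.05 in HDAC2 knockdown and from 0.0015 to 0.38 in Sp3 knockdown, and neither contrast was called.

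The genes of mitosis were nearly all lower in Sp3 knockdown. All 27 had a value below control, the authors' deposited table calls 25 of them lower, and 22 were lower after centring. The 3 calls of the whole program lost on centring were all of this group: Mad2l1, Hmmr and Anln. The median deposited change was -0.79 (log2) for mitosis and -0.67 for S phase genes, a difference of -0.12 that was not tested and was -0.19 over the genes without a shared locus.

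Of 8 mitotic cyclins, kinases and Foxm1, 6 fell in Sp3 knockdown. Cdk1 gave 8.96 FPKM in control, 10.3 in HDAC2 knockdown and 4.07 in Sp3 knockdown, 0.454 of control in the last. Its partner Ccnb1, cyclin B1, gave 17.2, 17.0 and 8.44 FPKM. Ccnb2 and Ccna2, cyclins B2 and A2, fell to 0.574 and 0.585 of control. Foxm1, the transcription factor of the mitotic wave, fell from 4.18 to 2.35 FPKM, and the Polo kinase gene Plk1 from 4.96 to 2.95. Aurka and Aurkb, the Aurora kinases of the spindle poles and of the chromosomal passenger complex, were at 0.721 and 0.714 of control and were not called, with q of 0.101 and 0.0600 in the authors' deposited table.

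All 5 genes of the spindle checkpoint and of the anaphase-promoting complex were called lower in Sp3 knockdown. Bub1b, which codes for the checkpoint kinase BubR1, fell from 4.48 to 2.10 FPKM, and Bub1 from 3.37 to 1.94. Cdc20, the activator of the complex, gave 13.8 FPKM in control and 13.2 in HDAC2 knockdown, and fell to 0.580 of control in Sp3 knockdown. Ube2c, the ubiquitin-conjugating enzyme of the complex, gave 17.6 FPKM in control, 15.5 in HDAC2 knockdown and 10.6 in Sp3 knockdown. For Mad2l1, which codes for the checkpoint protein Mad2, the q of 0.0364 in the authors' deposited table became an adjusted p of 0.133 after centring. It was at 0.710 of control.

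The 6 genes of chromosome structure and the centromere all fell in Sp3 knockdown, before and after centring. Cenpf, a large protein of the kinetochore, at chr1:191464492-191511965 in mm9, fell furthest of all 50. It stood at 7.75 FPKM in control, 5.85 in HDAC2 knockdown and 2.47 in Sp3 knockdown, a centred change of -1.52 ± 0.13. Its q for Sp3 knockdown is listed as 0 in the authors' deposited table. Cenpf was also lower in HDAC2 knockdown after centring, by -0.72 ± 0.24 (adjusted p = 0.0168, normal test), with a q of 0.180 in the authors' deposited table. The motor of the kinetochore, Cenpe, and the centromeric histone Cenpa fell to 0.515 and 0.531 of control. Top2a fell from 33.6 to 18.2 FPKM with 35.9 in HDAC2 knockdown, and Mki67 from 19.5 to 11.3 with 20.4. Birc5, survivin of the chromosomal passenger complex, fell from 8.10 to 4.69 FPKM.

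All 8 genes of the spindle and of cytokinesis were called lower in Sp3 knockdown, 6 of them after centring. Nusap1, which bundles spindle microtubules, gave 9.05 FPKM in control, 12.6 in HDAC2 knockdown and 4.41 in Sp3 knockdown. Its locus is shared with Oip5. Pbk, a mitotic kinase, Tpx2, which nucleates spindle microtubules, and Prc1, which bundles the midzone, were at 0.549, 0.599 and 0.633 of control. Ect2 and Racgap1, the exchange factor and the GTPase-activating protein that place the contractile ring, fell to 0.553 and 0.702. Hmmr and Anln, the latter the ring scaffold anillin, were at 0.766 and 0.716, and lost their call on centring with adjusted p of 0.0933 and 0.0752 by the normal test.

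**Figure D4:**
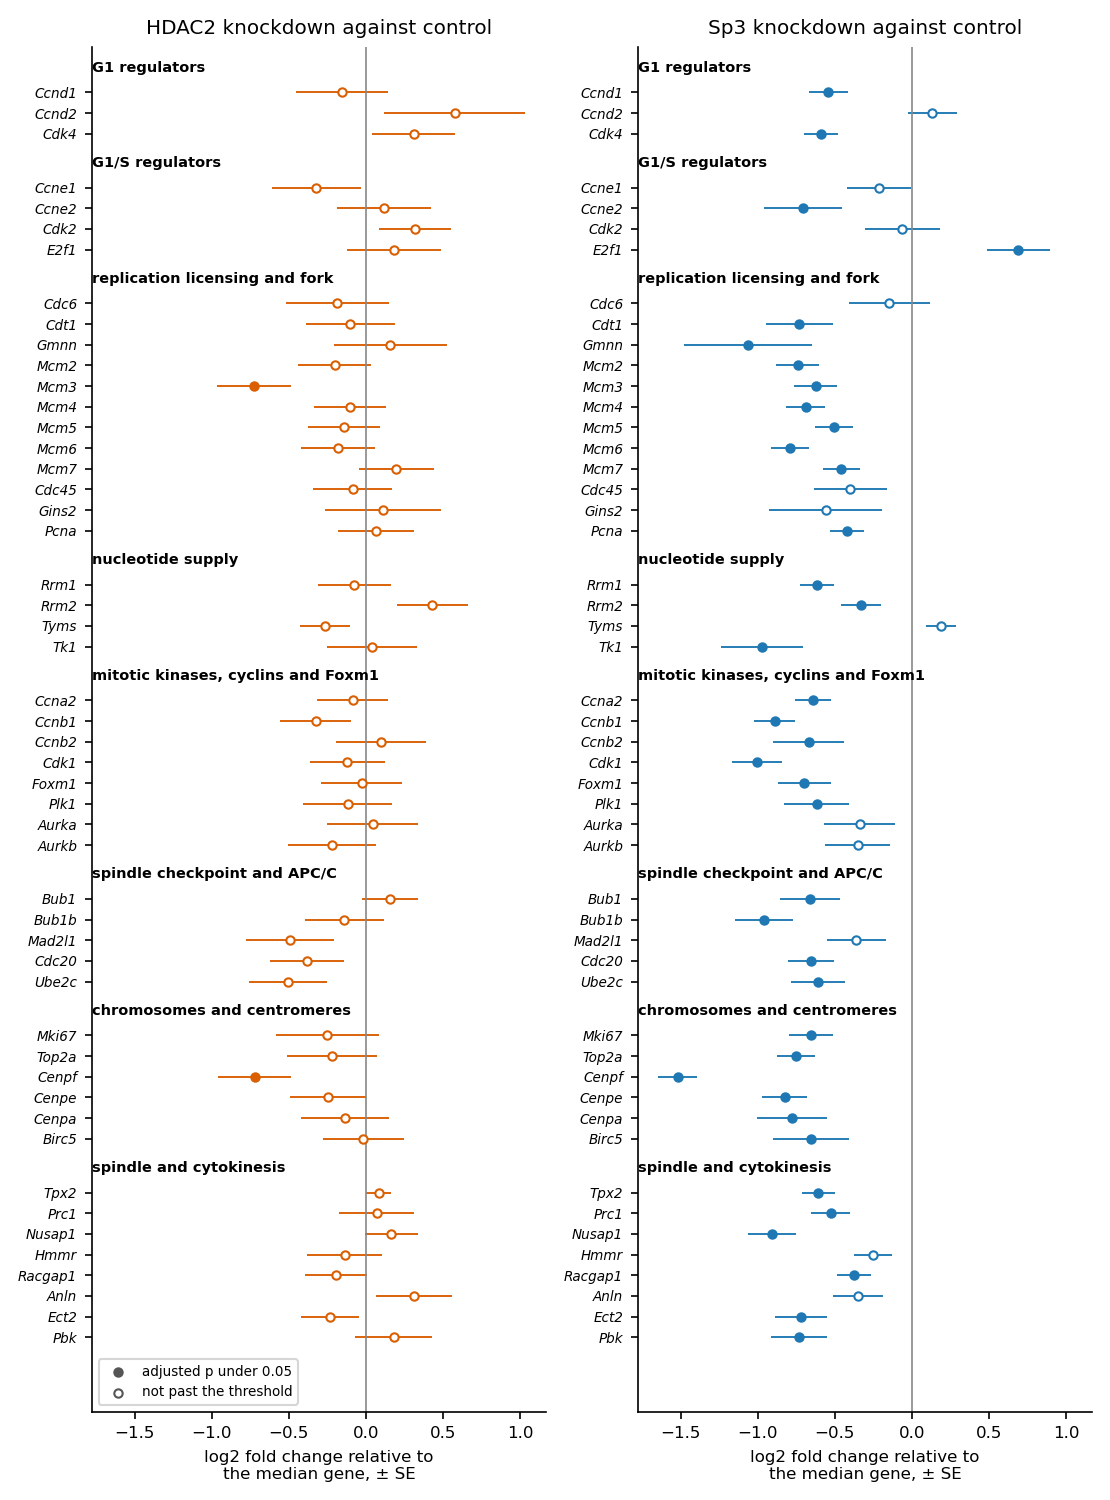
Centred log2 fold change of each of the 50 genes against control for Sp3 knockdown and HDAC2 knockdown, with bars of 1 implied standard error either side; filled points passed the adjusted p of 0.05 and open points did not. Sp3 knockdown values run from -1.52 (Cenpf) to 0.69 (E2f1), and the HDAC2 knockdown values from -0.73 (Mcm3) to 0.58 (Ccnd2).

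In HDAC2 knockdown the same genes lay near the median gene. The median deposited change of the 50 was 0.21, and -0.10 after centring, which reversed the sign of 24 single values. Rrm2, Cdk2, Bub1, Tpx2, Nusap1 and Anln were the 6 called higher in the authors' deposited table. For Tpx2, with 9.82 FPKM in control and 12.9 in HDAC2 knockdown, the implied standard error was 0.081, the smallest of the 50, and the centred change was 0.08. Cdk2 gave 4.32 FPKM against 2.78, Bub1 4.68 against 3.37 and Anln 5.39 against 3.49, and the direction of all 6 stayed positive after centring with 0 calls. The interval for a typical gene was wide: the median implied standard error was 0.25 in HDAC2 knockdown against 0.16 in Sp3 knockdown. For Cdk1 the 95% interval of the centred change in HDAC2 knockdown ran from -0.59 to 0.35.

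The difference between the knockdowns was tested directly on the centred changes, with the errors of both comparisons summed. Of the 50 genes, 8 were higher in HDAC2 knockdown than in Sp3 knockdown at an adjusted p of 0.05, and 0 were higher in Sp3 knockdown, against 7.86% and 6.87% of all tested genes. They were Cdk4, Rrm2, Cdk1, Bub1, Cenpf, Tpx2, Nusap1 and Pbk. Of these, Nusap1 differed most, by 1.07 ± 0.23 on the log2 scale. Cdk1 differed by 0.89 ± 0.29. The adjusted p of the normal test was 0.000108 for Nusap1 and 0.0197 for Cdk1. At an unadjusted p under 0.05 the counts were 24 and 1. The median difference was 0.56. With fold changes as deposited, not centred, the counts were 36 and 0. These uncentred differences include the shift of the median gene, 0.32 in HDAC2 knockdown and -0.13 in Sp3 knockdown. The summed error includes the shared control in both terms and is therefore too large: with the error divided by the square root of 2 the counts were 29 and 1. That division is exact only where all groups have the same error. The median implied standard errors were 0.25 in HDAC2 knockdown and 0.16 in Sp3 knockdown, so the smaller error may be too small. The shares of all tested genes given above hold only for the centred test at an adjusted p of 0.05. The unadjusted, uncentred and smaller-error counts have no such share beside them and are not set against a background.

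Genes of the same program outside the 50, on lists chosen for what their products do, moved in the same direction in Sp3 knockdown. These lists were also chosen with earlier results of these data known, and the libraries and control are the same. They are therefore a description and not an independent check. Of 49 other S phase genes tested, 30 were called lower and 0 higher in the authors' deposited table, and 26 and 0 after centring. Of all tested genes, 26.1% were called lower as deposited and 17.6% after centring. Pola2, a subunit of the polymerase that lays down primers, fell from 10.5 to 4.49 FPKM, and Uhrf1, which directs maintenance methylation of DNA, from 10.6 to 6.40. Of 75 other mitosis genes, 57 were lower and 0 higher, and 48 and 0 after centring; the condensin subunit Smc4 fell from 15.1 to 7.97 FPKM. In HDAC2 knockdown the other S phase genes gave 8 higher and 1 lower of 48, and 1 and 1 after centring, which is below the 24.6% and 10.2% of all tested genes called higher. The 1 higher after centring was Cdc25a, the phosphatase that activates Cdk2, at 5.73 FPKM against 2.22. The other mitosis genes gave 0 higher and 4 lower of 75, and 0 and 6 after centring. Those called lower were a share near that of all tested genes, 3.6% as deposited and 7.59% after centring.

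A few genes of these lists were low in both knockdowns, relative to the control values that both contrasts share. Sgol2, shugoshin of the centromere, gave 17.6 FPKM in control, 6.07 in HDAC2 knockdown and 3.31 in Sp3 knockdown. Oip5, which has a part in the loading of the centromeric histone, gave 10.7, 2.36 and 1.51 FPKM. It shares its locus with Nusap1, which stood above control in HDAC2 knockdown. Spc24, of the outer kinetochore, gave 13.9, 8.70 and 7.84 FPKM.

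Inhibitors of the cycle and the pocket proteins were called lower in Sp3 knockdown at a share near that of all tested genes. Of 27 tested, 9 were lower and 0 higher in the authors' deposited table, and 5 and 2 after centring, where 26.1% and 17.6% of all tested genes were lower. Among those lower was Btg2, an antiproliferative target of p53, with 33.7 FPKM in control, 14.8 in HDAC2 knockdown and 12.8 in Sp3 knockdown. In HDAC2 knockdown 9 were higher and 1 lower, and 4 and 1 after centring, where 24.6% and 10.2% of all tested genes were higher. Cdkn1c, which codes for the kinase inhibitor p57, rose from 0.942 FPKM in control to 8.19 in HDAC2 knockdown and stood at 0.619 in Sp3 knockdown. E2f6, a repressive E2F factor, rose from 10.5 to 19.7 FPKM in HDAC2 knockdown and was at 9.51 in Sp3 knockdown.

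Among markers of cells that can divide in such cultures, the lists differed. In Sp3 knockdown all 10 oligodendrocyte precursor markers and 11 of 12 neural progenitor markers had a value below control, while in HDAC2 knockdown several were higher. Astrocyte markers, described further below, went both ways in Sp3 knockdown, with 5 below control and 5 above. The summed level of 10 oligodendrocyte precursor markers was 252 FPKM in control, 151 in Sp3 knockdown and 445 in HDAC2 knockdown, with, in the authors' deposited table, 7 of 8 tested lower in Sp3 knockdown and 6 of 9 higher in HDAC2 knockdown. After centring these were 6 of 8 and 4 of 9, with medians of -0.63 and 0.63 (log2). Of all tested genes, 26.1% were called lower in Sp3 knockdown and 24.6% higher in HDAC2 knockdown as deposited, and 17.6% and 10.2% after centring. Pdgfra, the receptor that defines these precursors, gave 43.8 FPKM in control, 20.9 in Sp3 knockdown and 98.8 in HDAC2 knockdown. Olig1, the most abundant of the list in control, gave 95.1, 57.1 and 93.1 FPKM in the same order. It was the 1 marker of the 10 below control in HDAC2 knockdown, with a q of 0.947 in the authors' deposited table. The sum over 12 neural progenitor markers was 975 FPKM in control, 564 in Sp3 knockdown and 2287 in HDAC2 knockdown, with 6 of 11 lower and 6 of 11 higher, respectively, in the authors' deposited table. After centring these were 4 of 11 and 3 of 11, with medians of -0.42 and 0.62. Most of that sum is Fabp7, a fatty acid binding protein of radial glia, at 704, 351 and 1426 FPKM, and Vim, vimentin, at 186, 159 and 678, and the q of Fabp7 for HDAC2 knockdown in the authors' deposited table was 0.269. Sox2, a factor of progenitors and glia, gave 32.3, 17.8 and 84.1 FPKM. In HDAC2 knockdown the 50 cell cycle genes summed to 804 FPKM, against 642 in control. Like the marker sums, these are not centred. Their median change was 0.21 as deposited, with 6 called higher and 0 lower, and -0.10 after centring, with 0 and 2. The part of the marked cell types in the levels of the cell cycle genes was not tested in either knockdown.

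The other marker lists describe the rest of the dish, with sums given in the order control, Sp3 knockdown and HDAC2 knockdown. Astrocyte markers summed to 599, 522 and 1722 FPKM, and markers of myelinating oligodendrocytes to 24.4, 14.0 and 126. In the authors' deposited table, astrocyte markers gave 4 lower and 0 higher of 9 tested in Sp3 knockdown (4 and 3 after centring), and myelin markers 3 lower of 5. In HDAC2 knockdown 5 of 8 astrocyte and 8 of 9 myelin markers were called higher there, where 24.6% of all tested genes were. For Sp3 knockdown the shares of all tested genes were 26.1% lower and 13.2% higher as deposited, and 17.6% and 20.2% after centring. The neuron markers, all above 0 in every group, summed to 1128, 1488 and 1231 FPKM, with Tubb3, a neuronal tubulin, at 298 FPKM in control; in the authors' deposited table, 7 of 13 were called higher and 2 lower in Sp3 knockdown, and 7 and 0 after centring. Microglia markers summed to 6.65, 4.64 and 5.98 FPKM, most of it Cd68, at 4.50, 2.82 and 3.47. Cx3cr1 gave 0.463, 0.332 and 0.450 FPKM, and P2ry12 0.344, 0.375 and 0.926. Tmem119 was at 0 in all groups, and C1qa at 0 in control and in Sp3 knockdown. Endothelial, pericyte and fibroblast markers summed to 30.2, 53.6 and 44.4 FPKM, of which Dcn, the fibroblast proteoglycan decorin, made up 26.6, 49.9 and 38.4. In Sp3 knockdown 6 of these markers lay below control and 6 above.

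**Figure D5:**
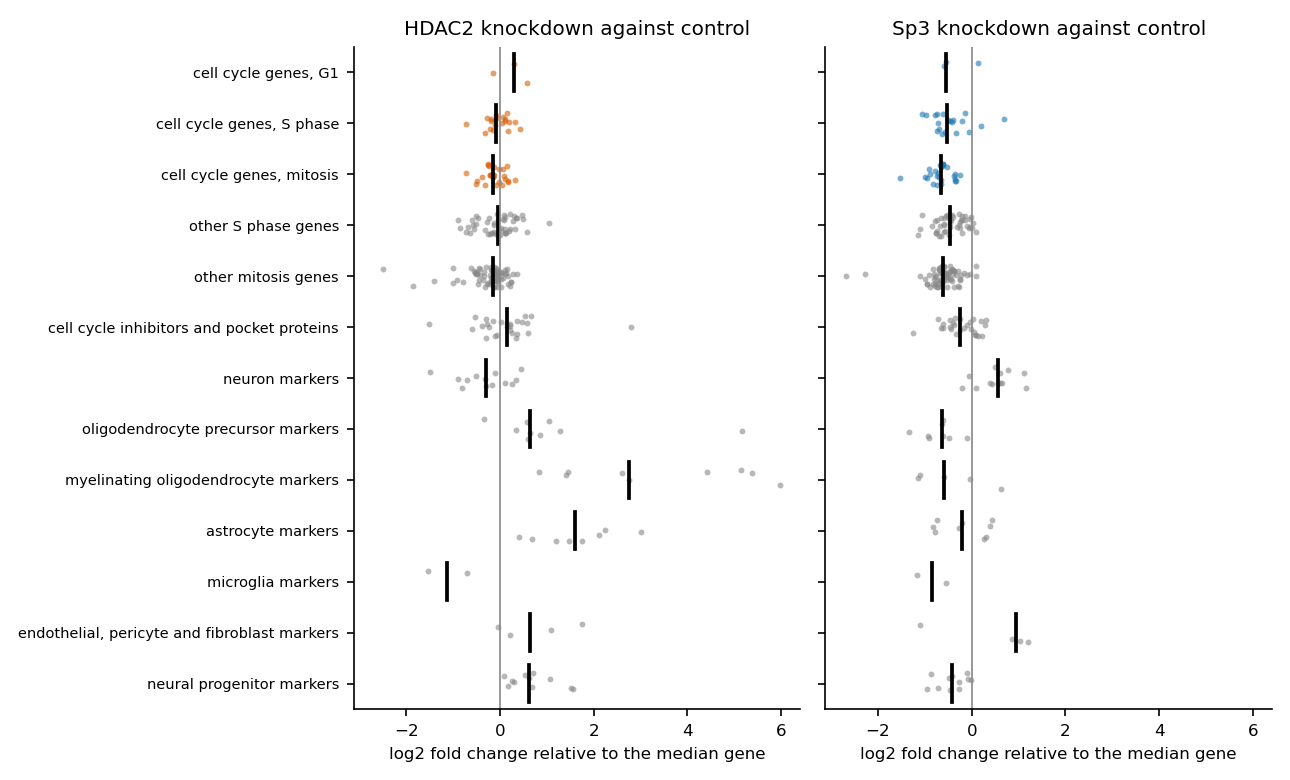
Centred log2 fold change of every tested gene of each list, 1 point per gene, for HDAC2 knockdown and for Sp3 knockdown, with the list's median as a line. The medians of the S phase and mitosis lists lie between -0.66 and -0.47 in Sp3 knockdown, and those of the oligodendrocyte, astrocyte and progenitor markers lie above 0 in HDAC2 knockdown.

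The calls rest on Cuffdiff's normal reference for 2 libraries a group. Against a t distribution with 2 degrees of freedom, no gene of either table passed adjustment, and 17 of the 50 were lower at an unadjusted p under 0.05 in Sp3 knockdown and 0 in HDAC2 knockdown. The unadjusted counts have no share of all tested genes beside them.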

How the data were processed

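RNA was sequenced from 6 libraries, 2 in each of 3 groups. Cuffdiff, TopHat, Bowtie and the build mm9 are named in the submitters' processing notes, with no annotation or strand setting. The authors deposited 1 table per knockdown against control, with FPKM per group. Per the file headers, each also holds a p-value, a q-value, the log2 fold change and Cuffdiff's statistic. That statistic is a normal deviate (largest gap to the deposited p-value 2.79e-06), so the log2 fold change divided by it gave an implied standard error. Centred changes subtract the median over tested genes of at least 1 FPKM and were tested by a normal p with Benjamini-Hochberg adjustment (threshold 0.05, scipy 1.17.1, pandas 2.3.3, numpy 2.4.6). The difference test uses the square root of the summed squared errors. Scripts were tested on simulated data. The depth is unknown, so no counting interval can be given.

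The members and all lists were chosen with earlier results of these data known. Every one of the 50 genes could be named, and from each list of other cell cycle genes the 4 with the smallest deposited p in each comparison, from each cell type list the 4 highest in control, and the targeted genes. Tmem119 and C1qa, microglia markers at 0, are named outside this rule and were chosen after their values were seen. Of the 50, 9 share a deposited locus with another gene, so reads could be split between them. Alternatives covered the q threshold, a fold minimum, a filter on FPKM, adjustment, scaling, the reference distribution, pseudocounts, the error of the difference, shared loci (added after seeing the data) and the promoter window.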

Additional observations from a re-analysis of the deposited data

How the results depend on the processing

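In Sp3 knockdown the count of 40 lower genes ran from 37 to 42 over thresholds of 0.01 and 0.10 on q, an FPKM filter, adjustment within the table, centring and upper-quartile scaling, and was 33 of the 41 genes without a shared locus. It was 7 with a fold minimum of 1 (log2) and 0 against a t distribution with 2 degrees of freedom, which calls no gene of the table. The 1 higher gene, E2f1, was lost (0) at q under 0.01, with the fold minimum and with the t distribution. The median deposited change moved from -0.75 to -0.62 on centring. In HDAC2 knockdown the 6 higher genes became 2 at q under 0.01 and 0 with the fold minimum, centring, upper-quartile scaling or the t distribution; the 0 lower became 2 on centring and 2 with upper-quartile scaling; and the median of 0.21 reversed to -0.10 on centring and -0.098 with upper-quartile scaling, since the median gene itself is shifted by 0.32. The 8 genes higher in HDAC2 than in Sp3 knockdown became 36 with fold changes as deposited, 2 at an adjusted p of 0.01 and 29 with the smaller error, which also called 1 gene the other way. The 36 include the shift of the median gene, and no share of all tested genes stands beside these alternative counts. The 17 mitosis promoters with a CHR became 9 without the bases after the start, and the 7 S phase promoters with an E2F site became 5. The difference between mitosis and S phase medians in Sp3 knockdown, -0.12, was -0.19 without genes of a shared locus, and between -0.13 and -0.11 with pseudocounts; scaling cannot move it. No paired analysis was possible because the tables hold 1 value per group; leaving out a replicate could not be run for the same reason.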
